A study of Mus musculus with 6 samples.

Results

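The transcription factors that set the identity of T cell lineages were followed in cDNT, double negative T cells converted from CD4+ T cells, with and without IL-10. The set held 9 genes named for their known roles, by a rule that used no measured value but was drawn up with earlier results of these data known: Zbtb7b, Runx3, Foxp3, Ikzf2, Gata3, Maf, Ahr, Rora and Zbtb16. All 9 were among the 29393 genes of the deposited count table, and all 9 passed the count filter that left 14916 genes for testing. Foxp3 passed it with 3 to 26 counts per library, whereas the other 8 members had more than 3 counts, the floor used here, in every library.

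The cells came from adult C57BL/6 mice, with spleen given as the tissue. According to the methods, CD4+CD25- T cells from spleen and lymph nodes of CD45.1 congenic mice were kept in coculture with dendritic cells in the presence of IL-2, after which the double negative fraction was sorted. The W/ IL-10 group received 50 ng/ml IL-10 for 24 h and the W/O IL-10 group did not, with 3 RNA-seq libraries in each group. No source used here says that the libraries of a group came from separate cultures or animals, so the p-values measure only the spread between these libraries, which may be technical. The methods mention anti-CD3/CD28 stimulation of the cells, which the sample labels do not give, and the design text speaks of duplicates where 3 libraries per group are listed.

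Lineage-defining transcription factors bind the regulatory DNA of the genes that give a T cell its function, and several of them hold each other in check. ThPOK, the product of Zbtb7b, and RUNX3 oppose each other in the choice between the CD4 helper and the CD8 cytotoxic lineage, and RUNX proteins bind the silencer of the Cd4 gene. FOXP3 defines regulatory T cells, GATA3 type 2 helper cells, and PLZF, the product of Zbtb16, innate-like T cells such as NKT cells, while RORα contributes to type 17 cells. IL-10 signals mainly through STAT3. c-MAF, encoded by Maf, and AHR, the aryl hydrocarbon receptor, act in several of these lineages, and c-MAF activates the Il10 gene itself.

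Promoter windows of 250 bases before an annotated start were searched for the letters TGTGGT, the core that RUNX proteins bind, on both strands. The windows came from RefSeq on GRCm38.p6, and 5 of the 9 members had an entry (Foxp3, Gata3, Rora, Runx3 and Zbtb7b, 8 windows in all), while Ikzf2, Maf, Ahr and Zbtb16 had none. The letters stood in 2 of the 8 windows and in 14.0% of all 32851 windows of that length. Those 2 windows belonged to Runx3 and Zbtb7b, the opposing pair, and are shown for that reason. The RUNX letters, or their reverse complement ACCACA, are in capitals. The Runx3 window (chr4:135120395-135120644, plus strand) held 2 matches, 134 and 126 bases before the start, and the Zbtb7b window (chr3:89387672-89387921, minus strand) held 1 match 89 bases before its start.
Runx3: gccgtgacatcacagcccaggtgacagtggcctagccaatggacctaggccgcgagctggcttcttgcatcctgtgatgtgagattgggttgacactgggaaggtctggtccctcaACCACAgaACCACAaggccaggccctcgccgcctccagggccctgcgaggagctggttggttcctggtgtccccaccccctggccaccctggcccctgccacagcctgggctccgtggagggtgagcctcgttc
Zbtb7b: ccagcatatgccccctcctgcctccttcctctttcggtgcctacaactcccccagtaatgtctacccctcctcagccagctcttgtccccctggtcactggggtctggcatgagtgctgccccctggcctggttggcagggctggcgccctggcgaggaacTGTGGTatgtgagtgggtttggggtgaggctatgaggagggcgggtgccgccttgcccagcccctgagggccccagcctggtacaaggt
The letters TGCTGA, which MAF proteins bind, stood in 2 of the 8 windows, 1 each of Foxp3 and Gata3, and in 16.1% of all windows. The Gata3 window (chr2:9878601-9878850, minus strand), with those letters 90 bases before the start in capitals, is shown because Gata3 and Maf are both helper cell factors.
Gata3: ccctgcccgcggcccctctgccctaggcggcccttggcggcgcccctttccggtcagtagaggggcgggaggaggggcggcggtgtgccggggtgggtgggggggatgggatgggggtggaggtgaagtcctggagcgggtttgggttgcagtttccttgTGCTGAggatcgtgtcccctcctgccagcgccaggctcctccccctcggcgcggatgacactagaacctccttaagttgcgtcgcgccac
The STAT letters TTCNNNGAA stood in 1 of the 8 windows, of Foxp3, and in 7.02% of all windows. No window of a member held matches of more than 1 of these motifs. The other Runx3 window and the other Zbtb7b window held no RUNX match. A match describes letters and not binding. Counts per gene do not separate the alternative starts of Runx3, Foxp3 or Zbtb7b.

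Library totals ranged from 21619420 to 23967088 counts, so that the floor of 3 counts equalled 0.125 to 0.139 CPM (counts scaled to library size, with TMM factors of 0.953 to 1.03). All 10 T cell markers, such as Cd3e and Lck, were tested, and their summed level was 3063 to 3504 CPM W/O IL-10 and 3900 to 3995 CPM W/ IL-10. Cd4 had 1.55, 1.49 and 1.12 CPM W/O IL-10 and 1.12, 1.20 and 0.350 CPM W/ IL-10. Cd8a had 105, 95.7 and 119 CPM W/O IL-10 and 168, 138 and 166 CPM W/ IL-10, so that the labelled double negative cells held little Cd4 RNA but clear Cd8a RNA. The label refers to CD4 and CD8 protein on sorted cells, and the paper reports that transferred cDNT stayed negative for both in mice. RNA and protein were not compared in these libraries. Summed dendritic cell markers ranged from 114 to 124 CPM over the 6 libraries, B cell markers from 63.0 to 160 CPM and macrophage markers from 27.6 to 36.7 CPM, with overlapping groups in each of these sums. In edgeR 1 of 10 T cell markers, Cd5, and 2 of 7 NK cell markers, Ncr1 and Eomes, fell. Gzma and 1 of 7 tested dendritic cell markers, Itgax, rose. Of the 10 T cell markers 8 were higher and 2 lower W/ IL-10, with a median log2 fold change of 0.24. Their groups did not overlap for 7 of the 10, against 22.6% of all tested genes. All 6 B cell markers were lower W/ IL-10, with a median of -0.49 and overlapping groups for each. Of 6 B cell and 5 macrophage markers tested, 0 passed in edgeR, DESeq2 or limma-voom, and 0 and 3 had an unadjusted p under 0.05. Clec9a and Siglech had at most 3 counts in every library. The dendritic cell sum combined differences in both directions: Itgax had a mean of 20.3 CPM W/O IL-10 and 43.2 CPM W/ IL-10, whereas Ccl22 had 12.1 and 1.94 CPM (log2 fold change -2.65, adjusted p = 0.102 in edgeR), Cd83 had 32.1 and 16.9 CPM (-0.93, adjusted p = 0.0840) and Zbtb46 had 6.69 and 4.93 CPM (-0.44, adjusted p = 0.212). The groups did not overlap for 6 of the 7 tested dendritic cell markers, against 22.6% of all tested genes, and their median log2 fold change was -0.41. Summed NK cell markers, mostly Gzma, were 2347 to 2902 CPM W/O IL-10 and 3728 to 5151 CPM W/ IL-10. The part of these sums in the results was not tested, and in bulk libraries fewer cells of a type and less RNA per cell cannot be told apart.

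Per kilobase of annotated exon, Runx3 stood highest of the 9 factors and Foxp3 lowest. Levels between genes were compared as RPKM, the CPM per kilobase of exon, averaged over the 6 libraries. The length merged the exons of all annotated transcripts of a gene, whichever of them the cells used, so levels between genes depend on that choice. Runx3 had 41.6 RPKM (37.3 to 45.1 over libraries), at percentile 91.9 of all tested genes, and Ikzf2, which encodes the regulatory T cell factor Helios, had 19.1 RPKM (14.8 to 23.3). Zbtb7b had 8.53 RPKM, Gata3 8.03 RPKM and Maf 7.61 RPKM. The ranges of neighbours in this middle group overlapped, so their order is not set beyond the spread of the libraries. Rora had 4.25 RPKM and Zbtb16 3.78 RPKM, also with overlapping ranges. Ahr followed at 1.46 RPKM (1.11 to 1.59), below every library of Zbtb16, and Foxp3 had 0.135 RPKM (0.0291 to 0.254), at percentile 3.07.

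**Figure D1:**
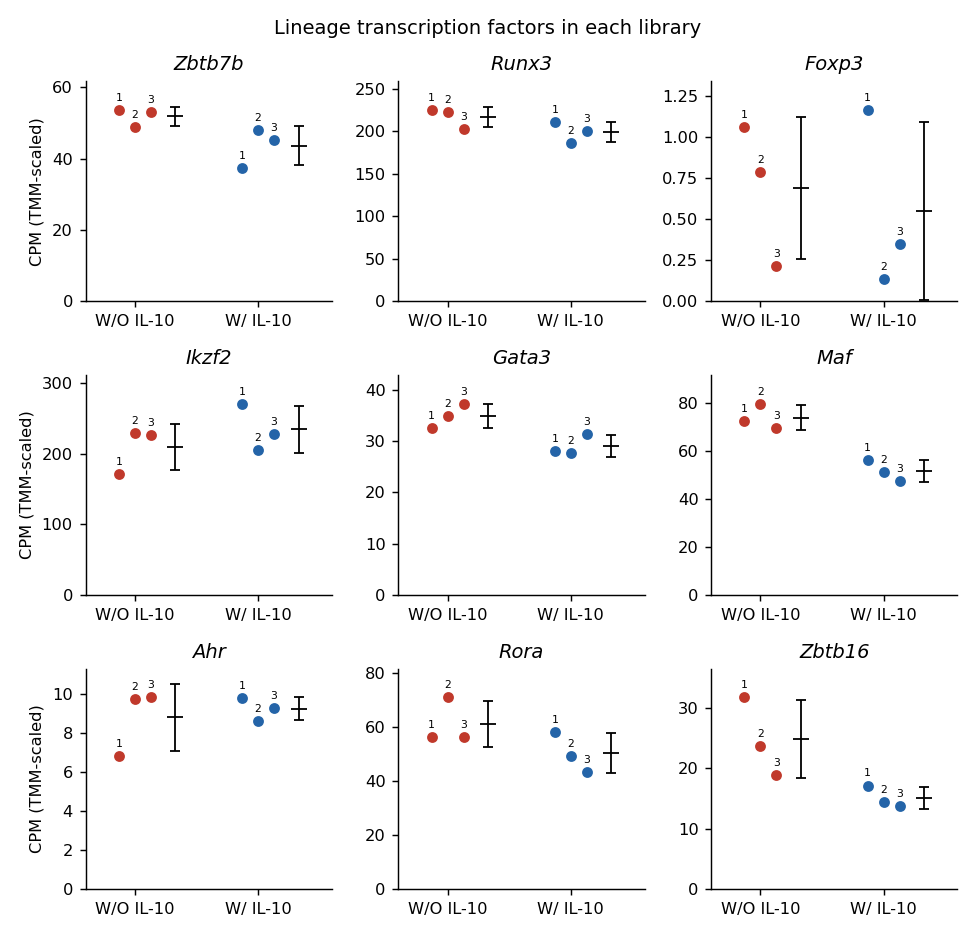
Level of each of the 9 factors in each library, in CPM scaled by TMM, on linear axes that start at 0 and differ between panels; numbered points are replicates and bars give the mean ± SD of 3 libraries. The W/ IL-10 points lay below all W/O IL-10 points for Zbtb7b, Gata3, Maf and Zbtb16, as for Maf with 47.5 to 56.3 CPM against 69.3 to 79.6 CPM.

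To ask whether IL-10 shifted the lineage factors, the groups were compared with edgeR's quasi-likelihood test over all 14916 genes. Maf fell, and the other 8 members did not pass the test. With an adjusted p under 0.05 and a fold change of at least 1.5, 0 of the 9 members were called, against 1.45% of all tested genes. At any fold change 1 of the 9, Maf, had an adjusted p under 0.05, against 2.19% of all tested genes. At an unadjusted p under 0.05 there were 4 members, Gata3, Maf, Zbtb7b and Zbtb16, against 14.7% of all tested genes, and of them 1, Zbtb16, also had a 1.5-fold change. DESeq2 called 1 member at the same thresholds and limma-voom called 0. The groups did not overlap for 4 of the 9 members, beside the 22.6% of all tested genes. The fitted log2 fold change W/ IL-10 against W/O IL-10 was below 0 for 7 members and above 0 for 2 (Ahr, Foxp3 and Runx3 each changed sign under an alternative), with a median of -0.27 beside 0.01 over all tested genes.

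Maf, the gene of the basic leucine zipper factor c-MAF (chromosome 8, 115682942 to 115707794, minus strand, GRCm38), was the member that fell. Its level was 72.5, 79.6 and 69.3 CPM W/O IL-10 and 56.3, 51.0 and 47.5 CPM W/ IL-10. Every W/ IL-10 library lay below every W/O IL-10 library. The mean went from 73.8 ± 5.28 to 51.6 ± 4.42 CPM (SD, n = 3 each), and the log2 fold change was -0.52 ± 0.09 (SE), with an adjusted p of 0.0272 in edgeR's quasi-likelihood test. The 95% interval ran from -0.72 to -0.31, a fold of 0.699 that did not reach the 1.5-fold threshold. Whether Maf passed depended on which libraries were kept. Its adjusted p in edgeR was 0.106 without W/O IL-10 replicate 2 and 0.0627 without W/ IL-10 replicate 1. It was 0.0996 without W/ IL-10 replicate 2 and 0.160 without W/ IL-10 replicate 3. The log2 fold change of Maf stayed between -0.58 and -0.46. Over all tested genes, 327 passed with every library kept, and 75, 57, 104 and 35 passed in those fits, in the same order. Over all alternatives the adjusted p of Maf ran from 3.11e-05 to 0.160. Macrophages can also express Maf, and their summed markers were 27.6 to 35.5 CPM W/O IL-10 and 33.3 to 36.7 CPM W/ IL-10. Most of that sum was Cd68 (20.4 to 23.05 CPM W/O IL-10 and 25.8 to 29.3 CPM W/ IL-10), whereas Adgre1 (log2 fold change -0.59), Lyz2 (-0.62) and Cd14 (-0.56, no overlap) were lower W/ IL-10, as Maf was, Itgam was higher (1.01, no overlap) and the median of the 5 tested was -0.56. None of these 5 passed the test in edgeR, DESeq2 or limma-voom, 3 had an unadjusted p under 0.05 in edgeR, and their part in the lower level of Maf was not tested. The genes whose log2 CPM followed Maf most closely over the 6 libraries were Prr5l (Pearson r = 0.995), Fam110a (r = 0.993) and Runx1 (r = 0.993), given as a description since the points share libraries and depth.

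Zbtb16, the gene of the innate-like T cell factor PLZF, had the fold change farthest from 1 among the members. Its level was 31.7, 23.7 and 18.9 CPM W/O IL-10 and 17.1, 14.4 and 13.8 CPM W/ IL-10. All W/ IL-10 libraries were the lower ones, and the W/O IL-10 libraries spread more widely (24.8 ± 6.47 CPM) than the W/ IL-10 libraries (15.1 ± 1.79 CPM; SD, n = 3 each). The log2 fold change was -0.72 ± 0.18 (SE), with a 95% interval from -1.13 to -0.30, and edgeR gave an adjusted p of 0.0974, so Zbtb16 was not called. It did pass with DESeq2 (adjusted p = 0.00606), with no filter on low counts (5.68e-06 in edgeR) and without W/O IL-10 replicate 3, where edgeR gave a log2 fold change of -0.89 and an adjusted p of 0.0388. With the replicate number as a block edgeR gave an adjusted p of 0.0434. Over all alternatives its adjusted p ran from 5.68e-06 to 0.347, the highest without W/ IL-10 replicate 3.

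Zbtb7b and Runx3, the opposing CD4 and CD8 lineage factors, did not pass the test. Zbtb7b had 53.7, 48.8 and 53.1 CPM W/O IL-10 and 37.4, 47.9 and 45.3 CPM W/ IL-10. The groups did not overlap, although W/O IL-10 replicate 2 and W/ IL-10 replicate 2 lay close together. The log2 fold change of Zbtb7b was -0.25 ± 0.10 (SE), with an adjusted p of 0.304 in edgeR's test. Runx3 had 226, 223 and 203 CPM W/O IL-10 and 211, 187 and 200 CPM W/ IL-10, with overlapping groups. Its log2 fold change was -0.12 ± 0.08 (SE), with a 95% interval from -0.30 to 0.06 and an adjusted p of 0.528 in edgeR's test. Both genes are rich in G and C (60.3% and 59.6% of the bases of their annotated transcripts). The median log2 fold change of all tested genes moved with GC content, from 0.47 at 36% or below to -0.13 above 60%. With a correction for GC content and length, the log2 fold change was -0.12 for Zbtb7b and 0.01 for Runx3.

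The ratio of Zbtb7b to Runx3, which needs no library size, did not separate the groups. Per kilobase, Runx3 exceeded Zbtb7b 4.69-, 5.10- and 4.28-fold in the W/O IL-10 libraries and 6.30-, 4.36- and 4.93-fold in the W/ IL-10 libraries. Only W/ IL-10 replicate 1 lay outside the range of the other group on the high side, and all 6 libraries held more Runx3 than Zbtb7b. The mean log2 ratio of Zbtb7b to Runx3 was -2.23 ± 0.13 W/O IL-10, against -2.36 ± 0.27 with the cytokine (SD, n = 3 each; exact two-sided permutation test, p = 0.6, where 3 against 3 allows no p below 0.1). The difference of -0.13 turned to 0.01 without W/ IL-10 replicate 1.

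The regulatory T cell factors showed a contrast of level. Foxp3 had 26, 19 and 5 counts W/O IL-10 and 24, 3 and 8 counts W/ IL-10, which is 0.215 to 1.06 and 0.133 to 1.16 CPM. Replicate 1 was the highest library in either group, W/ IL-10 replicate 2 was at the floor, and the groups overlapped. The log2 fold change of Foxp3 was -0.34 with a 95% interval from -2.06 to 1.39 and an adjusted p of 0.872 in edgeR's test, so neither a rise nor a fall of 2-fold could be told at this depth. Of its exon bases 18.6% also belong to the same-strand gene Flicr and 12.9% to Ccdc22 on the other strand, and whether the counting used strand is not given in the sources used here. Ikzf2 had 171, 230 and 227 CPM W/O IL-10 and 271, 205 and 228 CPM W/ IL-10, the lowest and the highest value both in a replicate 1 library. Its groups overlapped, and the log2 fold change was 0.17 ± 0.14 (SE), with a 95% interval from -0.15 to 0.48 and an adjusted p of 0.625 in edgeR's test.

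The remaining helper cell factors did not pass the test either. Gata3, the type 2 factor, had 32.6, 34.8 and 37.3 CPM W/O IL-10 and 28.0, 27.6 and 31.4 CPM W/ IL-10, with no overlap. Its log2 fold change was -0.27 ± 0.09 (SE) with an adjusted p of 0.228 in edgeR's test. Rora, the gene of the nuclear receptor RORα, had 56.2, 70.8 and 56.1 CPM W/O IL-10 and 58.0, 49.1 and 43.3 CPM W/ IL-10. The groups overlapped through W/ IL-10 replicate 1, and the log2 fold change was -0.28 ± 0.13 (SE), with an adjusted p of 0.360 in edgeR's test. With the correction for GC content and length and the replicate block together, Rora had a log2 fold change of -0.33 and an adjusted p of 0.0310 in edgeR, where its other alternatives reached up to 0.650. Ahr had 6.81, 9.75 and 9.81 CPM W/O IL-10 and 9.80, 8.60 and 9.28 CPM W/ IL-10, so that W/O IL-10 replicate 1 was the low library and the others lay together. Its log2 fold change was 0.07 with a 95% interval from -0.31 to 0.45 and an adjusted p of 0.885 in edgeR's test.

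**Figure D2:**
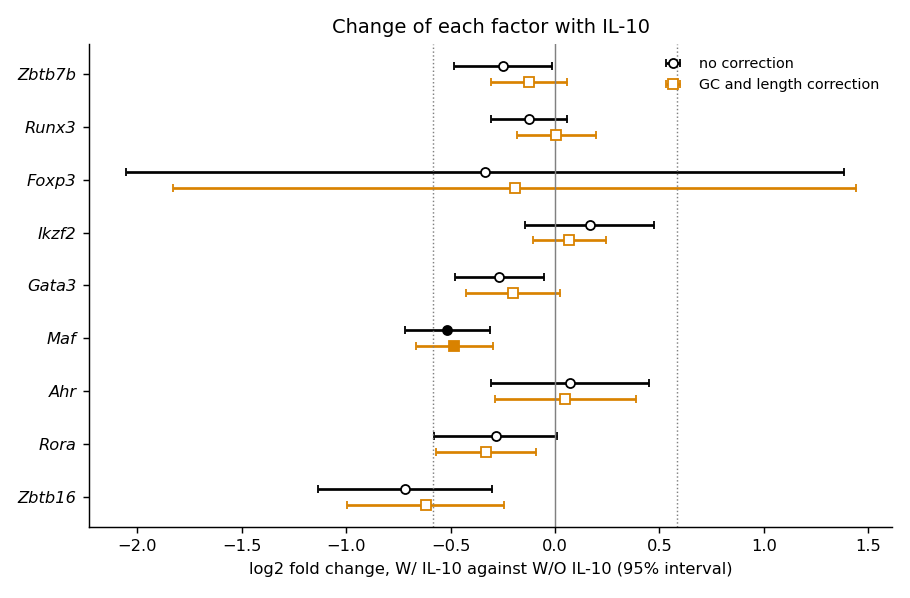
Log2 fold change of each factor, W/ IL-10 against W/O IL-10, with 95% intervals from edgeR, without correction (circles) and with a correction for GC content and length (squares); filled symbols have an adjusted p under 0.05 and dotted lines mark a 1.5-fold change. Maf alone was filled in both fits, at -0.52 and -0.48, and the interval of Foxp3 was the widest.

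The members were next set beside their closest paralogs, to see which gene of a family carried most of its RNA. In the RUNX family Runx3 held 69.6% to 72.8% of the summed RPKM W/O IL-10 and 63.6% to 64.9% W/ IL-10. The ranges did not overlap, and Runx3 was the largest part in every library. Runx2 rose from 10.6 to 16.0 RPKM (log2 fold change 0.59, adjusted p = 0.0139 in edgeR) and from 15.5% to 18.5% of the family to 25.6% to 25.9%. Runx1 had 7.32 and 6.16 RPKM (adjusted p = 0.139).

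Maf held 19.5% to 22.7% of the summed level of its family W/O IL-10 and 15.3% to 17.03% W/ IL-10, while the small MAF genes Mafg (14.5 and 13.1 RPKM) and Mafk (13.8 and 14.0 RPKM) were the larger parts. In the GATA family Gata2 was at 12.9 RPKM W/O IL-10 and 7.26 RPKM W/ IL-10 (adjusted p = 0.0685 in edgeR), beside 8.77 and 7.29 RPKM of Gata3. Gata3 held 29.7% to 44.9% and 40.1% to 51.0% of the family, with overlapping groups. Ikzf2 held 13.3% to 16.1% and 13.6% to 16.4% of the Ikaros family, in which Ikzf1 was the largest part at 78.2 and 89.9 RPKM. Foxp3 made up less than 1% of the FOXP family in every library, beside Foxp1 and Foxp4 at more than 10 RPKM. Shares within a family are descriptions, and no test was run on them. The libraries are bulk, and the marker lists covered only T, dendritic, B, macrophage and NK cells. Which cells held the RNA of a family gene such as Gata2 was not tested.

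Other genes of the same pathways were read from 9 lists, 123 genes in all, of which 109 were tested. An adjusted p under 0.05 in edgeR was reached by 23 of them (21.1%, against 2.19% of all tested genes), 14 higher and 9 lower W/ IL-10, with a median log2 fold change of -0.03 beside 0.01 over all tested genes. The lists were drawn up with earlier results of these data known, so these shares are not independent evidence. Among the 23 partners and paralogs tested, 2 rose and 2 fell. Runx2 and the zinc finger gene Zbtb32 (80.3 ± 3.69 to 119 ± 7.03 CPM, log2 fold change 0.57, adjusted p = 0.00949) rose. The GATA cofactor gene Zfpm1 (132 ± 8.25 to 91.6 ± 9.37 CPM, adjusted p = 0.0285) and the AHR-partner paralog Arnt2 (17.2 ± 3.48 to 9.27 ± 1.62 CPM, adjusted p = 0.0453) fell. Of the others, Ikzf1 (84.1 RPKM) and Cbfb (51.9 RPKM), which encodes the DNA-binding partner of RUNX proteins, stood highest.

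In the list of CD4 and CD8 lineage genes 2 of 15 rose and 1 fell, with a median of -0.03. Cd8a, whose values are given above, rose (log2 fold change 0.56 ± 0.11 SE, adjusted p = 0.0369 in edgeR). Cd8b1, for the β chain, had 37.2, 32.5 and 44.5 CPM W/O IL-10 and 57.0, 58.5 and 66.6 CPM W/ IL-10 and also rose (0.67 ± 0.12 SE, adjusted p = 0.0306). Both CD8 chains were higher in every W/ IL-10 library. Id3, an inhibitor of E proteins, fell from 3.53 ± 0.424 to 1.44 ± 0.256 CPM (adjusted p = 0.0322), and Cd4 did not pass (adjusted p = 0.545). Id2 (385 RPKM) and Ets1 (76.9 RPKM) were the highest of the rest.

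The type 17 list had the lowest median, -0.77, and of its 10 tested genes 1 rose and 2 fell. The groups did not overlap for 9 of the 10, against 53.2% of the 109 tested genes of all related lists and 22.6% of all tested genes. Il17a, the signature cytokine gene of type 17 cells, had 74.3, 81.7 and 60.2 CPM W/O IL-10 and 32.1, 44.3 and 27.0 CPM W/ IL-10. It fell (log2 fold change -1.06, adjusted p = 0.0247 in edgeR), with every W/ IL-10 library below every W/O IL-10 library. The IL-17 receptor gene Il17re fell from 12.2 ± 1.71 to 5.40 ± 1.05 CPM (adjusted p = 0.0173), and Batf, an AP-1 factor needed for type 17 cells, rose from 41.5 ± 3.84 to 57.7 ± 3.40 CPM (adjusted p = 0.0390). Stat3 (46.1 RPKM, adjusted p = 0.0720) and Tmem176b did not pass. DESeq2 passed 9 of the 10, and 696 of all 14916 genes where edgeR passed 327.

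In the regulatory T cell list 2 of 15 rose and 1 fell, with a median of 0.09. Ctla4, an inhibitory receptor gene, had 55.9, 76.1 and 93.4 CPM W/O IL-10 and 172, 179 and 182 CPM W/ IL-10 and rose (log2 fold change 1.25, adjusted p = 0.00831 in edgeR). Nrp1 rose from 9.42 ± 1.75 to 21.2 ± 3.41 CPM (adjusted p = 0.0145) and Lrrc32, which encodes the TGF-β docking protein GARP, fell from 40.8 ± 1.99 to 28.5 ± 3.24 CPM (adjusted p = 0.0423). Foxp3 itself stood at no more than 1.16 CPM in any of these libraries. Il2rb and Tnfrsf9 stood highest and did not pass. In the type 2 list 1 of 10 tested genes passed, the chemokine receptor gene Ccr4, which fell from 5.17 ± 0.964 to 1.77 ± 0.548 CPM (adjusted p = 0.0291). Its median was -0.29, and Stat6 and Il4ra, the highest, did not pass.

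Among 10 tested targets of c-MAF, 3 rose and 1 fell, with a median of 0.33. Il10 itself had 11, 13 and 7 counts W/O IL-10 and 50, 31 and 38 counts W/ IL-10, a log2 fold change of 2.08 ± 0.38 (SE; adjusted p = 0.0318 in edgeR). Lag3, an inhibitory receptor gene, had 186, 183 and 193 CPM W/O IL-10 and 377, 406 and 437 CPM W/ IL-10 and rose (log2 fold change 1.12, adjusted p = 0.000544). Pdcd1, the gene of PD-1, rose from 57.5 ± 4.43 to 87.5 ± 2.27 CPM (adjusted p = 0.00846), and Gpr183, an oxysterol receptor gene, fell from 109 ± 10.9 to 61.4 ± 3.60 CPM (adjusted p = 0.00383). Il10, Lag3 and Pdcd1 were higher, and Gpr183 lower, in the libraries in which Maf was lower. Maf and these genes each separated the groups, so this only restates their changes, and a link to Maf was not tested. Bhlhe40 and Tigit stood highest of the rest and did not pass. Of 5 tested AHR targets 0 passed in edgeR, DESeq2 or limma-voom, and 2 had an unadjusted p under 0.05. Tiparp (5.52 RPKM) and Nqo1 (4.77 RPKM) were the highest of them, and the median was -0.13.

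Of 14 innate-like genes 3 rose and 0 fell, with a median of 0.01. They were Cd160 (40.2 ± 2.58 to 74.2 ± 1.92 CPM, adjusted p = 0.00119 in edgeR), Il18r1 (123 ± 10.4 to 206 ± 35.6 CPM, adjusted p = 0.0247) and Il18rap (170 ± 20.99 to 260 ± 34.2 CPM, adjusted p = 0.0434), a surface receptor gene and both genes of the IL-18 receptor. Xcl1 (119 RPKM) and Cxcr6 (102 RPKM) did not pass. Of 11 other lineage and effector factors 1 rose and 1 fell. Tbx21, the gene of the type 1 factor T-bet, had 25.2, 21.6 and 24.8 CPM W/O IL-10 and 32.2, 32.6 and 32.9 CPM W/ IL-10 and rose (log2 fold change 0.45, adjusted p = 0.0467 in edgeR). Its paralog Eomes had 498, 514 and 539 CPM W/O IL-10 and 352, 383 and 356 CPM W/ IL-10 and fell (log2 fold change -0.51, adjusted p = 0.0176). Eomes remained far above Tbx21 in every library. Id2 and Tcf7 were the highest of the rest.

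**Figure D3:**
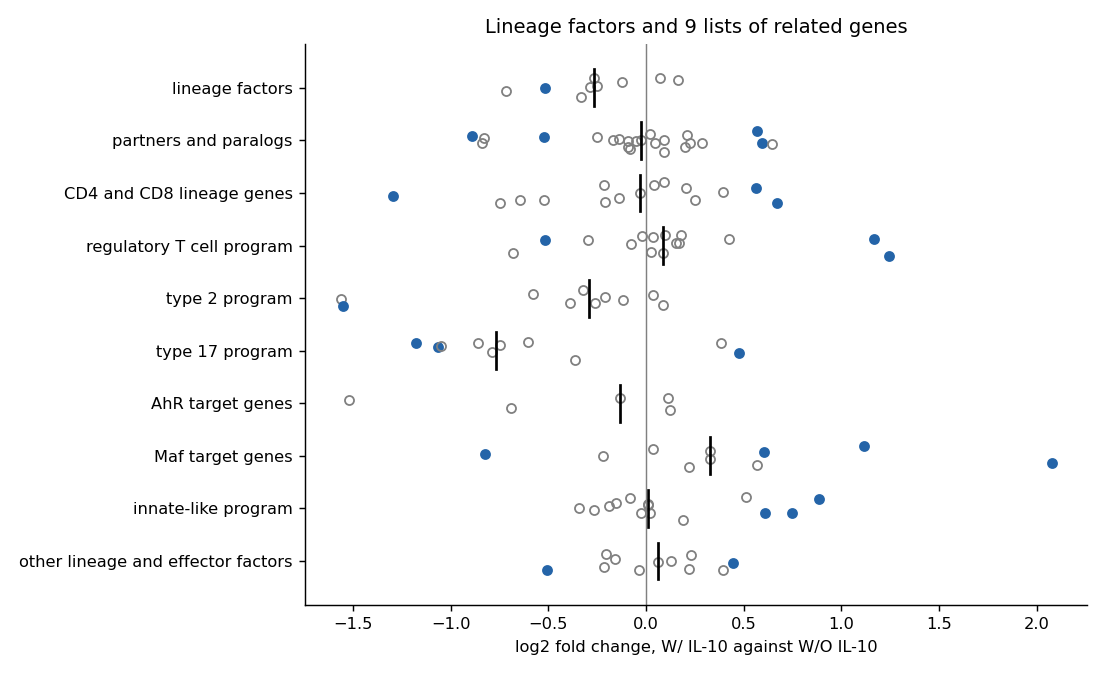
Log2 fold change of the 9 factors and of the tested genes of 9 related lists, W/ IL-10 against W/O IL-10; filled points have an adjusted p under 0.05 in edgeR and vertical bars mark medians. The type 17 list has the lowest median at -0.77 and the MAF target list the highest at 0.33, beside -0.27 for the factors themselves.

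The passing genes of these lists depended on which libraries were kept. Without 1 library, 2 (W/ IL-10 replicate 3 left out), 5 (W/ IL-10 replicate 1), 7 (W/O IL-10 replicate 2), 14 (W/ IL-10 replicate 2), 15 (W/O IL-10 replicate 3) or 23 (W/O IL-10 replicate 1) of the 23 still passed, with the direction of each kept. With the replicate block 20 of the 23 passed, and Batf, Il10 and Tbx21 did not (adjusted p of 0.0508, 0.0564 and 0.0747 in edgeR). With the correction for GC content and length 21 passed, and Lrrc32 and Zfpm1 did not (adjusted p of 0.0513 and 0.0789 in edgeR).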

How the data were processed

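RNA of sorted cDNT was sequenced in 6 libraries, 3 per group. The authors deposited 1 table of raw read counts per gene. The submitters' processing notes name HISAT2, HTSeq and GRCm38, whereas the methods of the study name other software, and the labels and the methods name different library kits. Strand use in the counting is not given in the sources used here. Library totals were 21619420 to 23967088 counts, and no pair of libraries was identical.

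Counts were tested with edgeR 4.0.16 (quasi-likelihood, TMM factors, a count filter of 10 or more in 3 or more libraries, Benjamini-Hochberg adjustment over 14916 genes) in R 4.3.3. A call needed a fold change of at least 1.5 and an adjusted p under 0.05. The test was checked on simulated counts. CPM used TMM-scaled library sizes, and RPKM divided CPM by the exon length in the GENCODE annotation of GRCm38, which held 29332 of the 29393 identifiers. The GC correction fitted a spline with 5 degrees of freedom. Alternatives were DESeq2 1.42.0, limma-voom (limma 3.58.1), upper-quartile scaling, other count filters, a replicate block, the GC correction and leaving out each library. The ratio of Zbtb7b to Runx3 was compared by an exact permutation test. Intervals with 3 libraries cover the spread between these libraries only.

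All 9 members were named, as were list genes with an adjusted p under 0.05, the 2 highest of the others per list, and the 3 genes closest to Maf. The members and lists were chosen with earlier results of these data known. Promoter windows came from RefSeq, GRCm38.p6. Some results are not reported here.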

Additional observations from a re-analysis of the deposited data

How the results depend on the processing

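Among the members, Gata3, Ikzf2, Maf, Rora, Zbtb7b and Zbtb16 kept their direction in every alternative, while Foxp3 turned to 0.13 without W/ IL-10 replicate 2 (-0.78 to 0.13 when 1 library was left out), Ahr to -0.094 without W/O IL-10 replicate 1 (-0.094 to 0.14) and Runx3 to 0.0055 with the GC and length correction and to 0.00019 with that correction and the replicate block. The cause was not tested. The number of members called was 1 (Zbtb16) with DESeq2, with no filter on low counts, with the replicate block and with the GC and length correction plus replicate block, and 0 to 1 when 1 library was left out. The number with an adjusted p under 0.05 was 2 with DESeq2, 2 with no filter, 2 with the replicate block, 3 with the GC and length correction plus replicate block, and 0 to 2 when 1 library was left out. Of the related genes 37 passed with DESeq2, 42 with no filter, 43 with the GC and length correction plus replicate block, and 2 to 32 when 1 library was left out. The difference of the Zbtb7b to Runx3 ratio turned to 0.014 without W/ IL-10 replicate 1, and ranged from -0.25 to 0.014 when 1 library was left out. Over all genes, 217 were called as described, 359 by DESeq2, 639 with no filter, 353 with the GC and length correction plus replicate block, 196 with the replicate block, 15 with 1.5-fold as the null hypothesis and 35 to 254 when 1 library was left out. At any fold change 327 genes passed, against 578 with the GC and length correction and 954 with the block added.

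Whether equal replicate numbers pair the libraries could not be told. The deviations of same-numbered libraries correlated at 0.0524, -0.0573 and 0.114, and those of differently numbered libraries at -0.106 to 0.0409. Replicates 1 and 3 correlated best with their own number, and replicate 2 did not. With 3 libraries per group, correlations this small cannot decide it. With 3 libraries per group the intervals of the members were wide, that of Foxp3 above all, and its 3 to 26 counts set no direction.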
